A study of Mus musculus with 6 samples.

Results

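A set of 10 complement genes that start or carry forward activation of the cascade was examined in mouse RPE-choroid, the retinal pigment epithelium (RPE) together with the vascular choroid beneath it. They were taken by symbol, for their roles and with earlier results of these data known: the C1q chains C1qa, C1qb and C1qc, the proteases C1ra, C1s1 and Masp1, and the convertase components C2, C4b, C3 and Cfb. All 10 members were among the 15663 genes listed for each library. The samples were 3 untreated control mice and 3 mice with subretinal fibrosis. All were male C57BL/6J mice provided at 8 to 10 weeks of age, with no transgene or deletion named. Their age when tissue was taken was not stated. Fibrosis was produced in 2 laser sessions 10 days apart, with 4 lesions per eye that were each burned in both sessions, and RNA was extracted 20 days after the later session. One library was made per mouse and summed to between 13667310 and 24356023 counts over the listed genes. The labels name the tissue as RPE-choroid and not as dissected lesions. The 10 RPE markers examined summed to between 43642 and 51677 CPM (library-scaled counts) in controls and between 29095 and 38518 CPM in fibrosis, with none at 0, and 9 of the 10 had a lower mean in fibrosis, 5 of them with an unadjusted edgeR p under 0.05.

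Complement is a set of plasma and tissue proteins that tag targets for removal. In the classical pathway, the hexameric C1q molecule, built from the products of C1qa, C1qb and C1qc, binds a target and activates the paired proteases C1r and C1s, which cleave C4 and C2 into a convertase that cleaves C3. The lectin pathway reaches the same step through MASP proteases, and the alternative pathway uses factor B (Cfb) to build a C3 convertase of its own. Most complement in plasma comes from the liver, but C1q is made mainly by macrophages and microglia, while C1r, C1s, C3 and C4 are also made by stromal and epithelial cells.

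The genes fall into clusters in the genome (GRCm38, GENCODE M21 annotation). The 3 C1q genes lie side by side on the reverse strand of chromosome 4, with C1qb at chr4:136880129-136886187, C1qc at chr4:136889804-136893065 and C1qa at chr4:136895917-136898803, and gaps of 3616 and 2851 bp between neighbours. C1ra (chr6:124512405-124523443, forward strand) and C1s1 (chr6:124530345-124542359, reverse strand) are 6901 bp apart. C2 (chr17:34862604-34898265), Cfb (chr17:34856374-34862518) and C4b (chr17:34728380-34743882) lie on the reverse strand of chromosome 17, where 85 bp separate C2 from Cfb and 112491 bp separate Cfb from C4b. C3 (chr17:57203970-57228136) and Masp1 (chr16:23449417-23520815) stand apart from these clusters, both on the reverse strand.

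Sequence next to the start sites of C1qb and C1qc is shown because the C1q chains were the members with the largest differences between the groups. RefSeq promoter windows (GRCm38.p6), which cover 250 bases before and 50 bases after a start site, were found for 5 of the 10 members (C1qb, C1qc, C1ra, C1s1 and C3) and not for C1qa, C2, C4b, Cfb and Masp1. Each window was searched on both strands for GAGGAA, the core bound by PU.1, a transcription factor of macrophages, and for 4 other elements. The stretches printed end at the start site of C1qb (chr4:136886201-136886450, reverse strand) and at the more upstream of the 2 annotated start sites of C1qc (chr4:136893066-136893164, reverse strand), 5′ to 3′, with the letters of the PU.1 core in capitals.

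C1qb: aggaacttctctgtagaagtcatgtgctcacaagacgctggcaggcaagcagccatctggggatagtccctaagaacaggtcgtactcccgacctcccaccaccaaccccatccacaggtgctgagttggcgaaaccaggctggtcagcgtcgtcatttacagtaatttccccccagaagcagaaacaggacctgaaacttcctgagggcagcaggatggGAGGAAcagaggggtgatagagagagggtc

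C1qc: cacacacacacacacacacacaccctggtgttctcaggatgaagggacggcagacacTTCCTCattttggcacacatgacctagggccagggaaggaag

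The C1qb stretch held GAGGAA beginning 30 bases before the RefSeq start site. The C1qc stretch held the PU.1 core on the opposite strand, read here as TTCCTC, beginning 193 bases before the RefSeq start site. These letters are common: GAGGAA was in 28.3% of the 32851 windows in the table. The C1ra window also held the PU.1 core, on the opposite strand. The interferon-stimulated response element and the ETS-IRF composite element were in none of the 6 windows of the members, against 3.44% and 2.72% of all windows. The RUNX site TGTGGT, in 16.8% of all windows, was in that of C1qc, and the C/EBP site TTGCNNAA, in 10.8%, was in those of C1ra, C1s1 and C3. A match of letters is a description of the sequence and not a binding site.

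Which of the complement activating components differed between fibrotic and control tissue was asked first. All 10 members had a higher mean in the fibrosis group, and the 3 C1q chains (1.64 to 1.87 times the control level) and C4b (1.48 times) stood at the top. Counts were compared as CPM after TMM scaling of the library sizes, a scale that sets a gene against itself between libraries. A gene was called at a Benjamini-Hochberg adjusted p under 0.05 over 13454 tested genes by the quasi-likelihood test of edgeR, provided that its log2 fold change reached 0.5. By this rule 0 members were called, as were 0% of all tested genes in the higher direction. At an unadjusted p under 0.05, 4 of the 10 members (C1qa, C1qb, C1qc and C4b) were higher in fibrosis, against 4.16% of tested genes. DESeq2 with the same thresholds called 2 members (C1qb and C1qc), against 0.803% of tested genes called higher. The CPM of the groups did not overlap for 5 members (the same 4 genes and C2), against 6.71% of tested genes with every fibrosis library above every control library. A log2 fold change above 0, as seen in 10 of 10 members, was found for 50.3% of tested genes. The median log2 fold change was 0.40 over the members and 0.25 over the 7 members other than C1q, beside 0.00 over all tested genes.

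**Figure D1:**
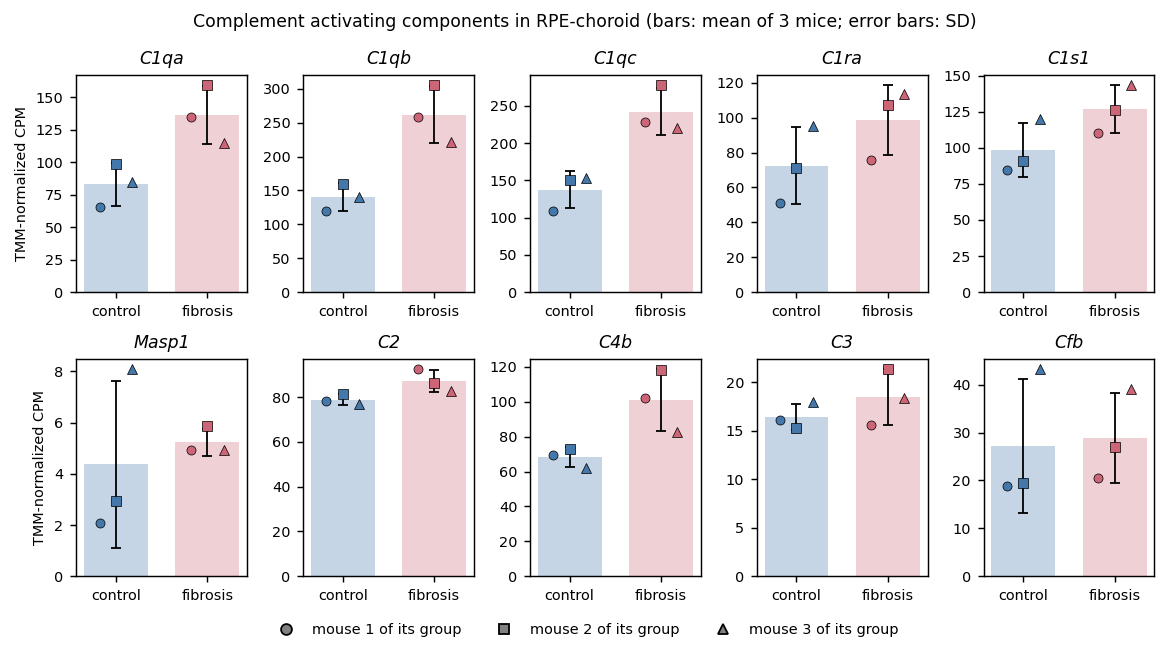
TMM-normalized CPM of each member in the 3 control (blue) and 3 fibrosis (red) libraries, with bars for means, error bars for SD and a marker shape for each mouse of a group. The groups are separate for C1qa, C1qb, C1qc, C2 and C4b, and overlap for C1ra, C1s1, Masp1, C3 and Cfb.

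C1qb, which codes for the B chain of C1q, had the largest fold change of the members. Its level was 119, 160 and 141 CPM in control mice 1 to 3 and 259, 306 and 221 CPM in fibrosis mice 1 to 3. Every fibrosis library was above every control library, with control mouse 1 lowest in its group and fibrosis mouse 3 lowest in the other. The means were 140 ± 20.5 and 262 ± 42.3 CPM (SD, n = 3 each), a log2 fold change of 0.90 with a 95% interval from 0.51 to 1.30. By edgeR's quasi-likelihood test the Benjamini-Hochberg adjusted p was 0.247, and C1qb was ranked 57 of all tested genes by p. DESeq2 gave an adjusted p of 3.5e-04. The exact two-sided permutation test of log2 CPM gave p = 0.1, the smallest value that 3 against 3 mice allow.

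C1qc, the gene of the C chain, was at 109, 151 and 153 CPM in the controls and at 229, 278 and 220 CPM in the fibrosis libraries. The groups did not overlap, and control mouse 1 and fibrosis mouse 3 were again the lowest of their groups. The log2 fold change was 0.81 (95% interval 0.41 to 1.22), with an adjusted p of 0.298 by the edgeR quasi-likelihood fit after Benjamini-Hochberg adjustment and 0.00398 by DESeq2. C1qa, the gene of the A chain, was at 65.7, 98.7 and 84.5 CPM in the controls and at 135, 159 and 115 CPM in fibrosis. These groups were separate too, with the same 2 mice lowest. Its log2 fold change was 0.72 (95% interval 0.27 to 1.16), and neither edgeR's quasi-likelihood test (Benjamini-Hochberg adjusted p = 0.413) nor DESeq2 (adjusted p = 0.0544) called it. No 100-nt stretch of the 3 C1q transcripts was shared with another annotated gene. Shorter or inexact matches were not searched.

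Control mouse 1 and fibrosis mouse 3, the mice with least C1q in their groups, also gave the libraries with most photoreceptor RNA. The 21 rod and cone markers summed to 17893 and 17644 CPM in them and to between 1881 and 3409 CPM in the other 4 libraries. Set against each other, those 2 libraries differed by 0.89 (C1qb), 1.01 (C1qc) and 0.81 (C1qa) on the log2 CPM scale, fibrosis minus control. The other 4 libraries gave 0.91, 0.73 and 0.68. Outside C1q, C1ra (1.14 and 0.13), Cfb (1.06 and -0.30) and C4b (0.25 and 0.71) differed more between these subsets than any chain did. So did C1s1 (0.76 and 0.18) and Masp1 (1.24 and 0.14). C2 (0.08 and 0.18) and C3 (0.19 and 0.14) differed less than C1qa and C1qc. With 1 library per group in the first subset these are values without a test. An edgeR fit over all libraries with a photoreceptor score as covariate gave log2 fold changes of 0.88 (C1qb), 0.81 (C1qc) and 0.70 (C1qa). It called 0 members and 1 of all tested genes. The part of photoreceptor RNA in the group differences was not itself tested. With control mouse 1 and fibrosis mouse 3 left out, edgeR's quasi-likelihood test gave Benjamini-Hochberg adjusted p-values of 0.0276 for C1qb and 0.04998 for C1qc, and called both, against 0.837% of the 13145 genes tested in that fit called higher. C1qa (adjusted p = 0.0675) and C4b (adjusted p = 0.0595) were not called by edgeR in that fit of 4 libraries. That fit called 153 genes in either direction, against 0 with all libraries. Leaving out the lowest C1q library of each group narrows the spread of C1q within groups. The calls of C1qb and C1qc therefore add no evidence to the full fit.

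Other cell types were read from marker lists in the same way. The 6 lens crystallins, of which 4 were tested, summed to between 4.62 and 62.1 CPM in controls and between 2.34 and 6.81 CPM in fibrosis, and all 4 were lower at an unadjusted edgeR p under 0.05, with a median log2 fold change of -2.66. Control mouse 2 held most crystallin RNA and control mouse 3 came next, while control mouse 1 lay among the fibrosis libraries. The 10 endothelial markers had a median log2 fold change of 0.03 with 0 past an unadjusted edgeR p of 0.05. The 9 markers of Müller glia and astrocytes had a median of -0.07 with 1 lower at that level. This was Rlbp1, which is also in the RPE list and counted there. Of 14 tested acute phase, interferon and cytokine genes, 12 had a higher mean, 5 of them at an unadjusted edgeR p under 0.05, with a median of 0.33. The part of these contents in the members' values was not tested.

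**Figure D2:**
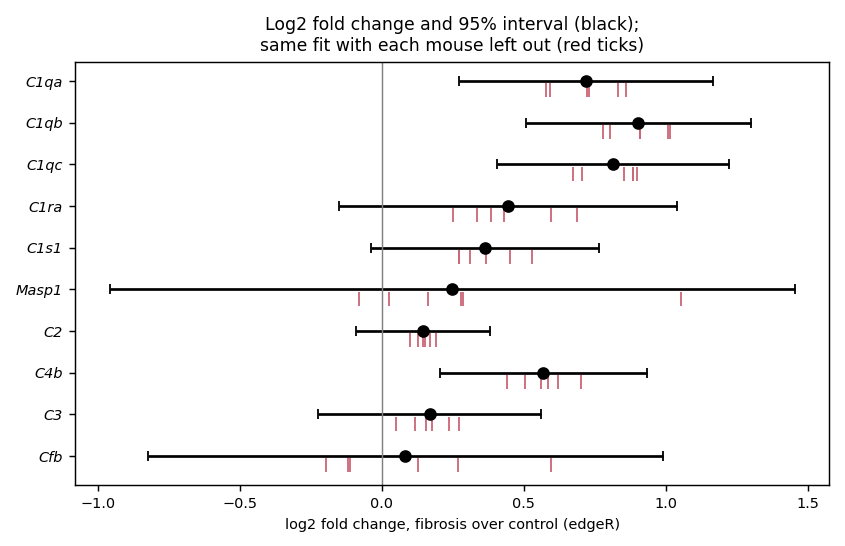
Log2 fold change of each member from edgeR (points) with its 95% interval (black bars), and the values of the same fit with each mouse left out (red ticks). The intervals of the C1q chains and of C4b lie above 0, and the ticks of Masp1 and Cfb fall on both sides of 0.

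The 3 chains are assembled together in 1 protein, so their ratios within a library were compared. Such a ratio does not depend on how libraries are scaled. The log2 ratio of C1qa to C1qb was -0.86, -0.70 and -0.74 in the controls and -0.94, -0.94 and -0.95 in fibrosis. All 3 fibrosis libraries were below all 3 controls and lay within a much narrower range. The mean difference was -0.18 (exact permutation p = 0.1, two-sided, Benjamini-Hochberg adjusted p = 0.30 over the 9 pairs compared). The ratio of C1qc to C1qb differed by -0.078 and that of C1qa to C1qc by -0.10, with overlapping groups (exact permutation p = 0.5 and p = 0.4). Of the 3 chain ratios, that of C1qa to C1qb alone was separate between the groups.

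C1qb was set against 6 macrophage markers in the same libraries, again as log2 ratios of CPM. Tissue macrophages and microglia are the main makers of C1q, and in bulk tissue more of these cells and more RNA per cell cannot be told apart. The ratio of C1qb to Laptm5, a lysosomal membrane protein of leukocytes, differed by 0.01 between the groups, with overlapping values (exact permutation p = 0.9, two-sided, adjusted p = 1.0 over 6 pairs). For Cx3cr1, the fractalkine receptor, the difference was 0.06, for Adgre1, which codes for F4/80, 0.07, and for Tyrobp, a signalling adaptor, 0.12, all with overlapping groups. Adgre1 and Cx3cr1 ratios varied widely, with control SDs of 0.35 and 0.40 on the log2 scale, so only large differences could be resolved for them.

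The ratio of C1qb to Csf1r, the receptor of the macrophage growth factor CSF1, stood apart from these. It was -0.30, -0.04 and -0.31 in the controls and 0.64, 1.02 and 0.46 in the fibrosis libraries. Every fibrosis library was above every control, by 0.93 on the log2 scale in the mean (exact permutation p = 0.1, adjusted p = 0.30). Csf1r itself was at 162 ± 14.6 CPM in controls and 159 ± 7.87 CPM in fibrosis. The ratio to Cd68, a lysosomal glycoprotein of phagocytes, was separate in the other direction: 0.80, 0.85 and 0.89 in the controls and 0.74, 0.69 and 0.68 in fibrosis, a difference of -0.14 (exact permutation p = 0.1, adjusted p = 0.30). Cd68 was called by DESeq2, with an edgeR log2 fold change of 1.05. Of the whole list of 23 macrophage and microglia markers, 21 had a higher mean in fibrosis, 12 with an unadjusted edgeR p under 0.05, and their summed level ran from 1658 to 2122 CPM in controls and from 3664 to 5379 CPM in fibrosis. Lyz2 and Ctss carried most of that sum. The other 21 markers, added up after these values had been seen, ran from 743 to 932 CPM in controls and from 1138 to 1397 CPM in fibrosis, 1.48 times higher in the mean against 2.26 times for all 23. None of these markers was at 0. Against the mean log2 CPM of this list, C1qb was higher in fibrosis by 0.30, C1qc by 0.22 and C1qa by 0.12, and of these the groups were separate for C1qc alone. The part of macrophage number in the C1q difference was not tested.

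**Figure D3:**
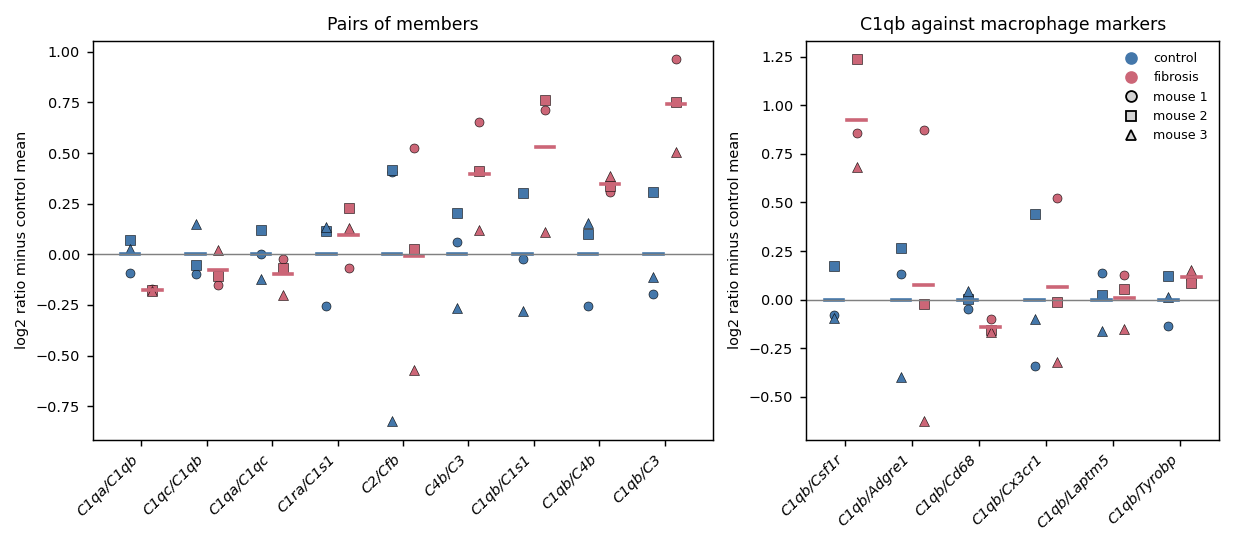
Log2 ratios of CPM within each library, shifted so that the control mean is 0, for 9 pairs of members (left) and for C1qb against 6 macrophage markers (right). Points are libraries, shaped by mouse 1 (circle), 2 (square) and 3 (triangle) of a group, and lines are group means. Fibrosis libraries are clear of the controls for C1qa/C1qb, C1qb/C4b, C1qb/C3, C1qb/Csf1r and C1qb/Cd68.

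The genes whose profile over the 6 libraries was most like that of C1q were ranked by the root mean square difference of centred log2 CPM from the mean of the 3 chains. Of 13444 genes, the nearest were Wfdc17 (0.043), Slc36a2 (0.083), Lrrc25 (0.092), Laptm5 (0.093) and Enpp6 (0.0999). Wfdc17, a small secreted protein with a WAP domain, was at 36.7, 49.9 and 44.97 CPM in the controls and 72.7, 85.9 and 69.2 CPM in fibrosis, the same order of mice within each group as C1qb. On FPKM values 3 of these 5 genes (Wfdc17, Slc36a2 and Lrrc25) were again among the nearest 5, while Enpp6 was at rank 77. By the same measure each C1q chain lay 0.058 to 0.059 from the mean of the 3, C4b at 0.21, C1ra and C1s1 at 0.33, and Cfb farthest at 0.61.

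Downstream of C1q, the proteases were higher in the mean but with overlapping groups. C1ra, the mouse gene of the protease C1r, was at 51.3, 71.2 and 95.1 CPM in the controls and 76.0, 107 and 113 CPM in fibrosis. Control mouse 3 was above fibrosis mouse 1. The log2 fold change was 0.44 with a 95% interval from -0.15 to 1.04 (Benjamini-Hochberg adjusted p = 0.849, edgeR's quasi-likelihood test). C1s1, the gene of C1s, the protease that cleaves C4 and C2, was at 84.6, 90.8 and 120 CPM in the controls and 110, 126 and 144 CPM in fibrosis, a log2 fold change of 0.36 (95% interval -0.04 to 0.77, adjusted p = 0.763 in the same edgeR fit). The 2 genes kept the same order of mice within each group, and their log2 ratio differed by 0.10 between the groups (exact permutation p = 0.6). The log2 ratio of C1qb to C1s1 was higher in fibrosis by 0.53, but control mouse 2 lay above fibrosis mouse 3 (exact permutation p = 0.2). Without control mouse 1 and fibrosis mouse 3 the log2 fold changes were smaller, 0.13 for C1ra and 0.16 for C1s1. C1ra shared 35.9% of its 100-nt stretches with other genes, nearly all of them with its copy C1rb, and C1s1 shared 20.02%, in part with the antisense gene Gm16567. Neither C1rb nor Gm16567 was listed, and the counts of C1ra and C1s1 are uncertain to that extent.

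Levels of C1ra and C1s1 were set beside the fibroblast markers of the same libraries. The mean log2 CPM of 10 fibroblast markers was 7.28, 7.68 and 8.07 in control mice 1 to 3 and 7.83, 8.36 and 8.11 in fibrosis mice 1 to 3, with all 10 markers higher in the mean and 3 with an unadjusted edgeR p under 0.05. Summed, these markers ran from 4608 to 10555 CPM in controls and from 7123 to 11509 CPM in fibrosis, and none was at 0. Relative to that mean, C1ra was at -1.54 ± 0.053 in controls and -1.50 ± 0.18 in fibrosis on the log2 scale (SD, n = 3), a difference of 0.05. For C1s1 the difference was -0.05. C1qb relative to the same fibroblast mean was higher in every fibrosis library than in any control, by 0.48. These comparisons with whole marker lists were added after the values of the members had been seen, and the part of stromal RNA in the protease values was not tested.

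Masp1, a protease of the lectin pathway, was the least abundant member. It was at 2.08, 2.93 and 8.09 CPM in the controls and 4.92, 5.85 and 4.93 CPM in fibrosis. Control mouse 3 was above all other libraries, and the control coefficient of variation was 74.5%. The log2 fold change of 0.25 had a 95% interval from -0.96 to 1.46, and it was -0.079 without control mouse 1 and 1.06 without control mouse 3. Masp1 overlaps Rtp4, a listed gene on the opposite strand, over 525 bp.

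Among the convertase components, the log2 fold change from counts was largest for C4b. C4b, the mouse gene of complement C4, whose fragment C4b binds covalently to targets, was at 69.6, 73.1 and 62.0 CPM in the controls and 102, 118 and 83.0 CPM in fibrosis. The groups did not overlap, and mouse 3 was the lowest in each. The log2 fold change was 0.57 (95% interval 0.20 to 0.93), with an unadjusted p of 0.00784 and a Benjamini-Hochberg adjusted p of 0.421 by edgeR's quasi-likelihood test and an adjusted p of 0.0811 by DESeq2. Without fibrosis mouse 3, DESeq2 called C4b (log2 fold change 0.69, adjusted p = 6.8e-04). C4b shared 16.5% of its 100-nt stretches with its copy C4a, which was not listed. The log2 ratio of C1qb to C4b was 0.77, 1.13 and 1.19 in the controls and 1.34, 1.37 and 1.42 in fibrosis, with every fibrosis library above every control (difference 0.35, exact permutation p = 0.1, adjusted p = 0.30 over 9 pairs).

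C2, the serine protease of the classical C3 convertase, was the steadiest member. It was at 78.3, 81.5 and 76.8 CPM in the controls and 92.6, 86.5 and 82.7 CPM in fibrosis. The groups were separate, but the difference was small, with a log2 fold change of 0.15 (95% interval -0.09 to 0.38) and an adjusted p of 0.904 by the edgeR quasi-likelihood fit after Benjamini-Hochberg adjustment. Relative to the 23 macrophage markers C2 was lower in every fibrosis library than in any control, by 0.46 on the log2 scale. C4b relative to the same list differed by -0.05, with overlapping groups. Relative to the 10 fibroblast markers C2 differed by -0.28 and C4b by 0.14, both with overlapping groups. Cfb, the catalytic part of the alternative convertase, lies next to C2 but did not share its steadiness. It was at 18.8, 19.4 and 43.3 CPM in the controls and 20.4, 27.0 and 39.0 CPM in fibrosis, with mouse 3 highest in both groups. Its log2 fold change of 0.08 (95% interval -0.83 to 0.99) changed sign when single mice were left out, from -0.12 without control mouse 1 and -0.20 without fibrosis mouse 3 to 0.60 without control mouse 3. The log2 ratio of C2 to Cfb ran from 0.83 to 2.07 in the controls and from 1.09 to 2.18 in fibrosis (exact permutation p = 1.0). C2 shared 53.2% and Cfb 81.0% of their 100-nt stretches with Gm20547, an annotated gene that runs through both and was not listed. C2 also overlaps Zbtb12 on the opposite strand, and since the strand setting of the counting was not given, reads of the 2 genes cannot be told apart.

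C3, the central component cleaved by all pathways, depended on the unit. In CPM it was at 16.1, 15.2 and 17.9 in the controls and 15.6, 21.4 and 18.4 in fibrosis, with overlapping groups. The log2 fold change from counts was 0.17 (95% interval -0.22 to 0.56, adjusted p = 0.968 by the edgeR quasi-likelihood fit after Benjamini-Hochberg adjustment). In the FPKM deposited by the authors, which divide by transcript length, C3 was at 3.08, 2.90 and 3.94 in the controls and 4.01, 6.55 and 5.55 in fibrosis. Here every fibrosis library was above every control, and limma on log2(FPKM + 0.1) gave a log2 fold change of 0.67 (unadjusted p = 0.0238, Benjamini-Hochberg adjusted p = 0.547). The FPKM given per CPM of C3 was 0.192, 0.190 and 0.220 in the controls and 0.257, 0.306 and 0.302 in fibrosis, 1.44 times higher in the mean. For the median tested gene this factor was 1.04 and for each C1q chain 1.03. Over all 6 libraries the FPKM per CPM varied 1.61-fold for C3 and 1.45-fold for Cfb, and by at most 1.08-fold for the other 8 members. The cause was not tested. The log2 ratio of C1qb to C3 was higher in fibrosis by 0.74 on CPM, with separate groups (exact permutation p = 0.1, adjusted p = 0.30), and by 0.27 on FPKM, with overlapping groups. The ratio of C4b to C3 differed by 0.40 on CPM and by -0.075 on FPKM, with overlapping groups on both.

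Levels were compared between genes on the authors' FPKM scale. In control tissue C1qb was highest, at 126 ± 18.01 FPKM, followed by C1qc at 112 ± 20.2 and C1qa at 78.2 ± 15.4. C1s1 (33.4 ± 6.74), C2 (33.0 ± 1.24) and C1ra (23.9 ± 7.26) formed a middle range in FPKM, with C4b (12.5 ± 1.01) and Cfb (11.7 ± 4.66) below them. C3 was at 3.31 ± 0.556 FPKM and Masp1 at 1.14 ± 0.822, so that the highest and lowest member differed 111-fold. In the controls C1qb and C1qc overlapped, as did C1qc and C1qa, C1s1 and C2, and C4b and Cfb, while the other neighbours in this order were separate. The order of the means was the same in the fibrosis group. There C1qb was at 244 ± 41.4, C4b at 19.2 ± 3.57 and C3 at 5.37 ± 1.28 FPKM. The C1q chains made up 71.6%, 75.6% and 70.7% of the summed FPKM of the 10 members in the controls and 79.9%, 80.5% and 75.6% in fibrosis. Fibrosis mouse 3 lay just below control mouse 2, so these shares overlapped.

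**Figure D4:**
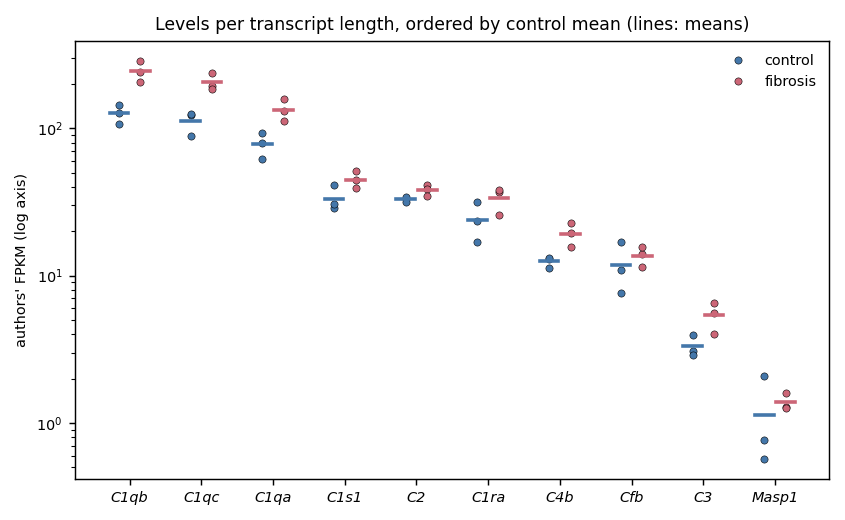
FPKM of the authors for each member in every library (points, log axis) with group means (lines), ordered by the control mean. The C1q chains are highest in both groups and Masp1 lowest, with control means of 126 FPKM for C1qb and 1.14 FPKM for Masp1.

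Of the other complement genes, 46 were considered, 30 were listed and 25 were tested. Of these 18 had a higher and 7 a lower mean in fibrosis, 4 were higher at an unadjusted edgeR p under 0.05 (Cfd, C3ar1, Itgax and Itgb2), 0 were lower at that level, and DESeq2 called 3 (C3ar1, Itgax and Itgb2). Their median log2 fold change was 0.13. From the list of other classical and lectin pathway components, Fcna and Colec12 were tested, with log2 fold changes of 0.50 and 0.39. In the alternative pathway, Cfd, which codes for the protease that cleaves factor B, was at 8.41, 11.0 and 12.9 CPM in the controls and 26.9, 26.8 and 12.5 CPM in fibrosis. Fibrosis mouse 3 lay among the controls, and the log2 fold change of 1.04 had a standard error of 0.33 and a Benjamini-Hochberg adjusted p of 0.516 by edgeR. Cfp, properdin, which steadies the alternative convertase, had a log2 fold change of 0.34. Of the terminal pathway only C8g was tested, with a log2 fold change of -0.15.

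Among soluble regulators, Serping1, the C1 inhibitor that blocks C1r and C1s, was the most positive. It was at 250 (mouse 1), 313 (mouse 2) and 447 (mouse 3) CPM in the controls and 377, 487 and 500 in fibrosis, the same order of libraries as C1ra, with a log2 fold change of 0.43 (adjusted p over 0.05 in edgeR and DESeq2). Membrane regulators, which protect host cells, lay close to 0, from -0.09 for Cd46 to 0.13 for Cr1l on the log2 fold change scale.

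Receptors for fragments of C3 were divided. C3ar1, the receptor of the fragment C3a, was at 27.1, 28.6 and 27.5 CPM in the controls and 45.2, 57.8 and 59.4 CPM in fibrosis, with no overlap and a log2 fold change of 0.96 (adjusted p = 0.198 by the edgeR quasi-likelihood fit after Benjamini-Hochberg adjustment, 2.7e-05 by DESeq2). Itgax and Itgb2, the chains of complement receptor 4, had log2 fold changes of 1.27 and 1.27, with Itgb2 at 16.9 ± 0.549 CPM in controls and 40.8 ± 10.1 CPM in fibrosis. Itgam, which pairs with Itgb2 in complement receptor 3, was at 10.6 ± 4.31 CPM in controls and 10.8 ± 1.24 CPM in fibrosis, a log2 fold change of 0.03, and is given after its value was seen. Lowest in this list was C1qbp, a mitochondrial protein that also binds C1q, at -0.05.

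**Figure D5:**
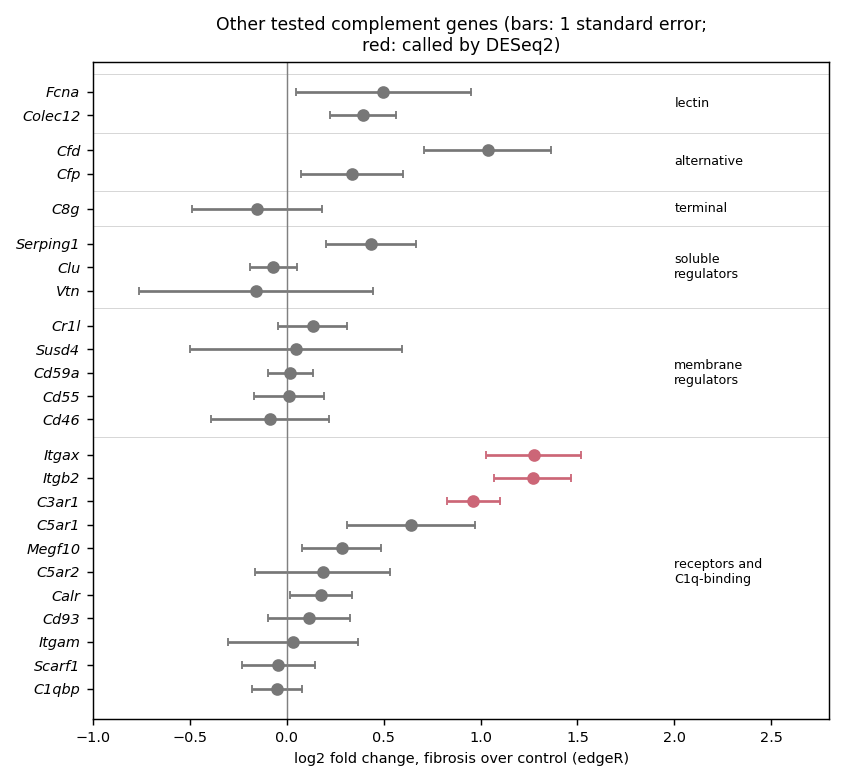
Log2 fold change of the other tested complement genes from edgeR, all but 1 of them plotted, grouped by role, with bars of 1 standard error. Red points mark C3ar1, Itgax and Itgb2, the genes called by DESeq2.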

How the data were processed

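RNA-seq of RPE-choroid from 3 control and 3 subretinal fibrosis mice was analysed, with groups and mouse numbers taken from the sample labels. The authors filtered reads with FASTP 0.18.0, and the submitters' processing notes name StringTie and DESeq2; the aligner, genome build, annotation and strand setting are not given in the sources used here. The authors deposited raw read counts per gene, and also FPKM, scaled by transcript length and mapped reads. Of the 15663 listed identifiers, 15659 matched GENCODE M21 (GRCm38). The lowest listed count was 1, so genes without a row are not analysed here.

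Genes above 50 counts in 2 or more libraries were tested with edgeR 4.0.16 (TMM, glmQLFit with the legacy form, glmQLFTest; R 4.3.3) and Benjamini-Hochberg adjustment over the 13454 tested genes, with group alone in the model. The scripts were tested on simulated data with known changes. DESeq2 1.42.0, the study's tool, and limma 3.58.1 (voom on counts, or trend on log2 FPKM with 0.1 or 1 added) were alternatives, together with other scalings, filters, a replicate block, a photoreceptor covariate and fits without single mice. DESeq2 calls used the same limits as edgeR, an adjusted p under 0.05 with a log2 fold change of 0.5 or more in size. Ratios within libraries were compared by exact two-sided permutation tests over mice (scipy 1.17.1). Each mouse gave 1 library and no batch was named. Replicates differed beyond counting noise, so none was a copy.

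The members and lists were chosen with earlier results of these data known. Genes named were the members, the largest and smallest log2 fold change in each role list of other complement genes with any called by DESeq2, the macrophage markers of the ratios and the 5 nearest profiles; 1 gene that this rule names is not reported here. Marker lists were those of macrophages, photoreceptors, fibroblasts, RPE, endothelium, Müller glia and lens, with a list of inflammation genes. The numbers of the mice were checked for pairing by correlating deviations from group means across genes. Shared 100-nt stretches were counted between annotated transcripts.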

Additional observations from a re-analysis of the deposited data

How the results depend on the processing

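The log2 fold changes of C1qa (0.57 to 0.86), C1qb (0.77 to 1.02), C1qc (0.66 to 0.90), C1ra (0.13 to 0.69), C1s1 (0.16 to 0.53), C2 (0.10 to 0.20), C4b (0.44 to 0.70) and C3 (0.04 to 0.67) stayed above 0 under all 24 alternatives. An adjusted p under 0.05 was reached in 8 of these for C1qb, 7 for C1qc, 2 for C1qa and 1 for C4b. Nearly all of these were DESeq2 fits. Outside DESeq2, only edgeR without control mouse 1 and fibrosis mouse 3, the mice with least C1q in their groups, reached it, for C1qb and C1qc. That of Masp1 ran from -0.089 to 1.06 (without control mouse 3) with mice left out, at -0.079 (edgeR) and -0.089 (DESeq2) without control mouse 1 and -0.05 without control mouse 1 and fibrosis mouse 3 together. That of Cfb ran from -0.41, without both these mice, to 0.60, without control mouse 3, at -0.12 (edgeR) and -0.13 (DESeq2) without control mouse 1, -0.11 and -0.12 without control mouse 2 and -0.20 and -0.21 without fibrosis mouse 3. Members called were 2 with DESeq2 and 2 without control mouse 1 and fibrosis mouse 3 in edgeR, and ran from 0 to 4 with single mice left out of edgeR or DESeq2: DESeq2 called C1qa without control mouse 2 or fibrosis mouse 3, C4b without fibrosis mouse 3, and no longer C1qc without fibrosis mouse 2. Over all tested genes the number called was 0 in edgeR, 153 with DESeq2 (108 higher, 45 lower), 153 in edgeR without control mouse 1 and fibrosis mouse 3, 2 on FPKM with either pseudocount, 1 with voom, with the newer edgeR form, with library totals, with no filter, with filterByExpr or with the photoreceptor covariate, and 0 to 343 with single mice left out: 0 to 5 in edgeR, and in DESeq2 246, 90 and 182 without control mice 1, 2 and 3 and 151, 67 and 343 without fibrosis mice 1, 2 and 3. Deviations of same-numbered mice correlated across genes at -0.48, 0.47 and -0.31, which showed no common pairing. Control mouse 1 and fibrosis mouse 3, the libraries richest in photoreceptor RNA, correlated at 0.615. This check therefore could not decide whether the mouse numbers pair the samples. With the replicate block 0 genes and 0 members were called, and 6 members had an unadjusted p under 0.05, beside 1206 of the 13454 tested genes (943 without the block). The log2 ratio differences of C4b to C3 and of C1qb to C3 moved to -0.075 and 0.27 on FPKM. The standard error of the log2 fold change had a median of 0.19 over all tested genes, and was 0.0999 for C2 and 0.166 for C3. With 3 mice a group, differences of the size seen in counts for C2 and C3 could not be told from 0.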
